A study of Monomorium pharaonis with 23 samples.

Results

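The genes described here are the 60 most abundant head transcripts of pharaoh ant (Monomorium pharaonis) workers that were not clearly split by the task of the worker. They were chosen from 12648 genes by 2 measured values. A gene was kept where the forager was the higher of the pair in more than 10% and less than 90% of the 126 pairings of a forager with a nurse library (ties shared evenly between the tasks), which left 12477 genes. These were ranked by the mean of the forager mean and the nurse mean, so that both tasks weigh alike, and the first 60 were taken. Their levels and their forager to nurse differences were therefore used in the choice and are given below as a description, without a test; a fit of the same contrast over all genes is used for its background count alone.

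The libraries were made from polyadenylated RNA of whole heads, 9 from foragers taken while collecting food and 14 from nurses taken while tending larvae. The colonies behind both tasks held 10 queens with about 300 to 400 workers and as many brood, and were kept on mealworms and an agar-based diet. The labels do not say how many heads or which colony a library came from, so every spread and p-value below measures only the spread between these libraries, which may be technical. Throughout, ± is the SD, over 9 libraries for foragers and 14 for nurses. Expression is in RPKM, the reads of a gene per kilobase of its length and per 1000000 reads of the library, and levels of different genes are compared on that scale only. Read totals, recovered from the RPKM values, ran from 3.68 to 31.3 M (M stands for 1000000), with 8.15 ± 3.96 M in foragers and 15.4 ± 7.52 M in nurses.

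Ant workers of a colony divide its work, with younger workers usually inside on brood care and older workers outside foraging. A head holds brain, eyes, antennae, muscle, fat body and several glands, and a few very abundant transcripts of such tissues can take up a large part of an mRNA pool. In whole heads, fewer cells of a type and less RNA per cell cannot be told apart. The genes are known here by identifier alone: all 60 matched the RefSeq gene table of assembly ASM1337386v2, which pairs them with no product name, and none had a symbol other than its identifier. No role is therefore given to any of them, and the label of head tissue was not checked against marker genes. All 60 were annotated as protein coding, against 91.6% of the 9622 genes that reached 1 RPKM in 9 libraries or more, which are called the tested genes below.

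The 60 genes, a small part of the table by number, held 25.5% ± 3.16 of the summed RPKM in foragers and 25.3% ± 2.40 in nurses. Among foragers it was lowest in forager 4 at 21.1%, had a median of 24.5% and was highest in forager 2 at 30.3%. Among nurses it was lowest in nurse 4 at 20.7%, had a median of 25.9% and was highest in nurse 2 at 28.7%. The ranges of both tasks overlapped almost wholly, and the means lay closer together than either SD. The 60 most abundant genes of each library taken on their own held 30.7% ± 2.98 in foragers and 29.2% ± 2.28 in nurses.

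Most of this share came from few genes. The 10 highest members held from 12.1% to 18.6% of the summed RPKM in foragers, with a mean of 15.1%, and from 8.94% to 17.2% in nurses, with a mean of 13.9%. The 50 below them held 10.4% ± 1.10 and 11.4% ± 1.20. The first member alone, LOC105835079, held 3.69% ± 1.29 in foragers and 4.42% ± 1.18 in nurses, with single libraries from 2.10% in forager 3 to 6.04% in nurse 11. The upper and the lower part of the list did not always move together. In nurse 10 the first 10 held only 8.94%, the lowest of all 23 libraries, while the other 50 held 12.5%. In nurse 9 the other 50 reached 13.6%, the highest of all libraries, and the first 10 held 12.1%. Forager 2 was highest for the first 10, with 18.6%.

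**Figure D1:**
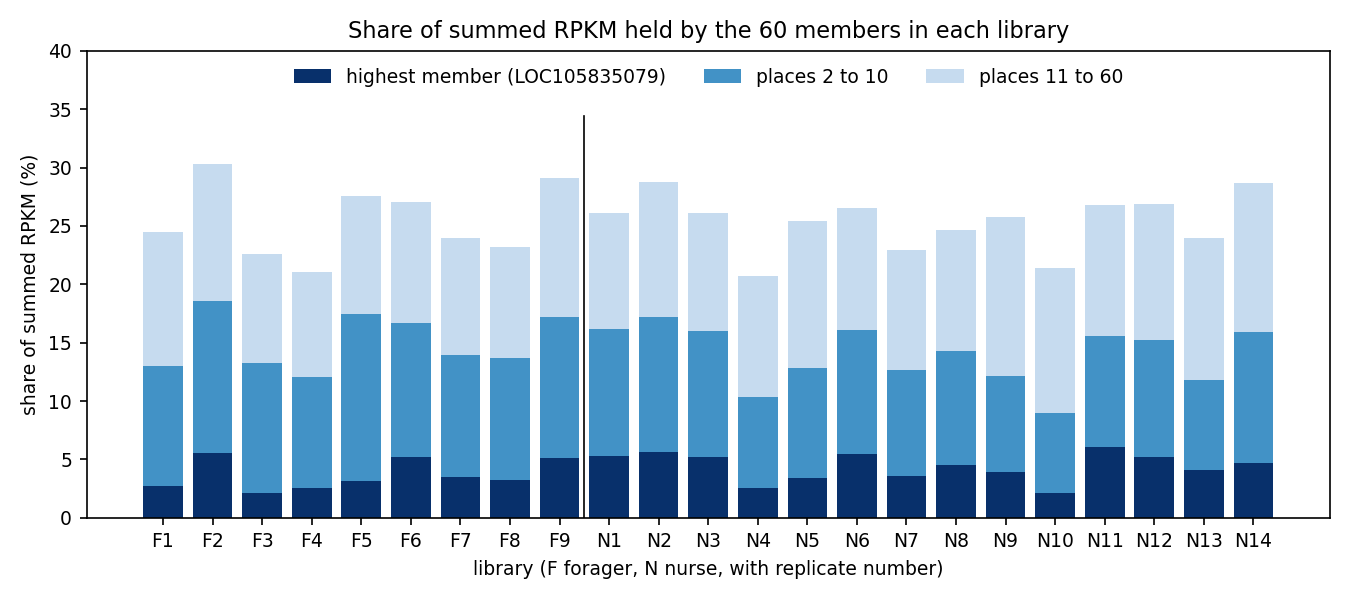
Share of summed RPKM, in percent, held by the 60 members in each library, stacked as the highest member, places 2 to 10 and places 11 to 60; F marks foragers and N nurses. The totals run from 20.7% in nurse 4 to 30.3% in forager 2, and the part held by the first 10 is smallest in nurse 10.

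As a share of reads the members held less, but that share is not of the same genes or of the same total. The 55 members whose gene length could be recovered from the RPKM steps took 6.21% ± 1.10 of all reads in foragers and 6.20% ± 0.96 in nurses. The other 5, the first member among them, are not in this figure. Its total is all reads of a library, of which only 45.6% (nurse 1) to 63.7% (nurse 2) lay in genes of recovered length. Summed RPKM covers the genes of the table alone. RPKM also divides by length, and the members were short. How much each of these differences adds to the gap was not tested. Their recovered lengths ran from 367 to 5244 bases with a median of 850 bases, against a median of 2114 bases over the 9616 tested genes with a length. Of the members 34 were known to be under 1000 bases, 56.7% of the 60, where 15.6% of the tested genes were. The 5 members of unknown length are counted in the 60, so the share could only be higher. LOC105832324, LOC105840161 and LOC105837245 were the shortest, at 367, 409 and 423 bases, and LOC105834987 the longest at 5244 bases. The annotation gives 1 transcript for the median member and 2 for the median tested gene. Length and transcript number were not used in the choice, but at equal reads a shorter gene has a higher RPKM, so they are not free of it either.

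LOC105835079 had the highest mean of both tasks. In foragers it was closely followed by LOC105838064, a gene left out by the share limits, with 12385 ± 3381 RPKM against 12449 ± 4681, a difference far within the spread. LOC105835079 had rank 1 in 3 of 9 foragers and 13 of 14 nurses. It lay between 6775 and 19748 RPKM in foragers, with a median of 12492, and between 6537 and 22032 in nurses, with a median of 14146. The groups overlapped over nearly their whole range. Forager 3 with 6775, forager 4 with 6830, nurse 4 with 7269 and nurse 10 with 6537 were the low libraries of their tasks, and forager 2 and nurse 2 the high ones. In single libraries it never fell below rank 4.

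The next members ran at 4495 to 6629 RPKM. LOC105839081 averaged 7932 ± 2038 RPKM over foragers and 5325 ± 1948 over nurses, and the forager was higher in 84.9% of the pairings. Nurse 14 with 11282 RPKM was above every forager, and forager 4 with 4362 was the lowest of its task. LOC105829144 was at 5810 ± 2243 and 5120 ± 912 RPKM, with medians of 5137 and 5155 that nearly coincided. Its forager mean was drawn up by forager 5 with 10889 RPKM, where the next forager had 7287. LOC105834324 was at 5026 ± 1263 in foragers and 5427 ± 1584 in nurses and stood between ranks 2 and 7 in every library.

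LOC105835275 was the least even of the first 10. It ran from 4150 to 11154 RPKM in foragers, with a median of 5707, and from 1199 to 8106 in nurses, with a median of 2953. The highest library had 9.30 times the RPKM of the lowest, nurse 10, and the forager was higher in 84.9% of the pairings. Its annotated span overlaps that of LOC105835256, at a mean level of 103 RPKM. Since the libraries were unstranded, any reads in the overlap cannot be told apart. Spans run from the start to the end of a gene, and whether counted reads fall in the overlap was not tested. LOC105830660 ran from 2222 to 10903 RPKM in foragers and from 2187 to 6524 in nurses, with medians of 4704 and 3801. Forager 5 was the highest forager for LOC105829144, LOC105835275 and LOC105830660, each time well above the next.

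The remaining members of the first 10 lay near 2000 RPKM and had similar levels in both tasks. LOC105839498 averaged 2780 ± 827 RPKM over foragers and 2532 ± 900 over nurses. LOC105834264 was at 2107 ± 424 and 2467 ± 511, and 8 of its 9 foragers lay between 1986 and 2562 while forager 4 had 1090. LOC105832682 was at 2111 ± 636 and 1721 ± 732, and LOC105833020 at 1902 ± 513 and 1804 ± 519. In all 4 the lowest nurse was nurse 4 or nurse 10.

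**Figure D2:**
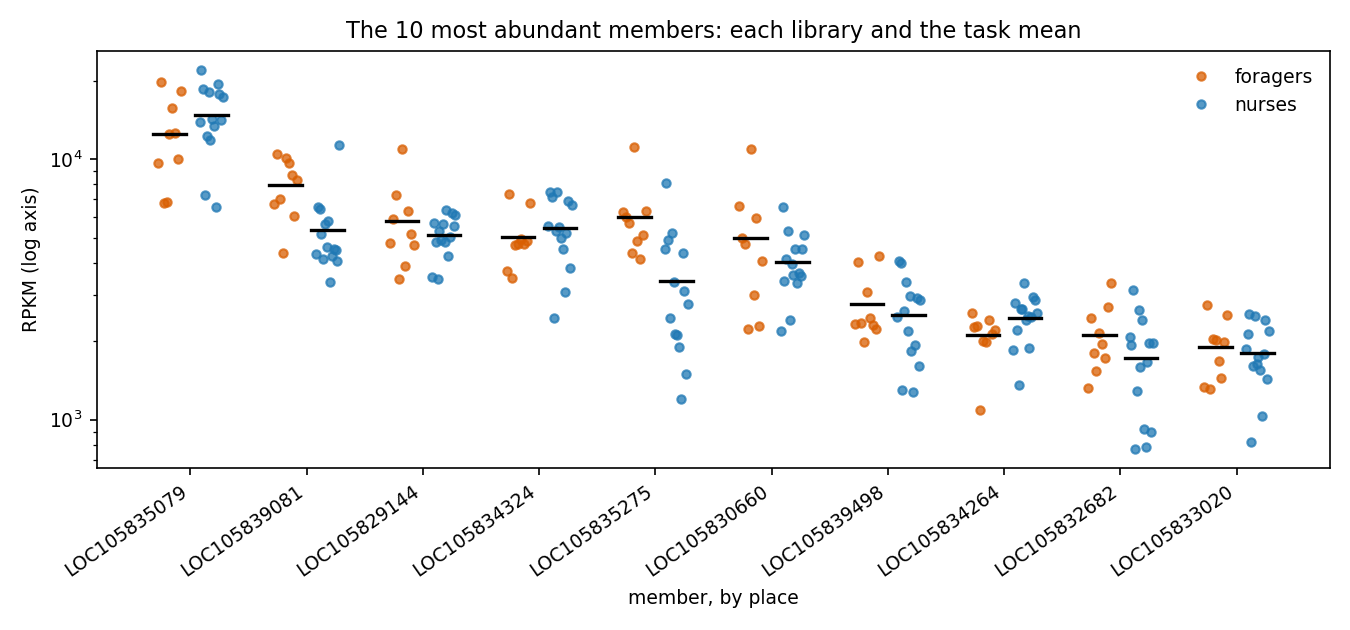
RPKM on a log axis of the 10 highest members in each library, foragers and nurses side by side, with the task mean as a black bar. The groups overlap for every gene shown; LOC105835079 stands above the rest, and the single high foragers of LOC105829144, LOC105835275 and LOC105830660 are forager 5.

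The order of the genes was compared between tasks by ranking all 12648 genes by the forager mean and by the nurse mean. Of the 60 members, 53 stood among the first 60 of foragers and 47 among the first 60 of nurses. The larger of the 2 ranks was under 1.5 times the smaller for 41 members, 8 had the same rank in both tasks, and 30 had the higher mean in foragers. In 7 members the larger rank was at least 2 times the smaller. LOC105834324 is the only one of them in the first 10, at rank 2 in nurses and 6 in foragers. Its own means were close, 5427 and 5026 RPKM. LOC105838064, LOC105839081, LOC105835275 and LOC105829144 stood above it in foragers and below it in nurses. All of these had forager means above their nurse means. LOC105839065 was at rank 17 in foragers and 43 in nurses, and LOC105831241 at 21 and 50. The other 4 ranked higher in nurses and are the most variable members described below: LOC105830375 at rank 25 in nurses and 124 in foragers, LOC105831433 at 20 and 68, LOC105840634 at 29 and 62, and LOC105837073 at 32 and 69. The third largest rise in foragers was that of LOC105834987, at rank 36 against 68. The rule limits how far a member can differ between tasks, so these counts describe the list.

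LOC105839065 lay between 561 and 1651 RPKM in foragers, with a median of 1193, and between 391 and 1029 in nurses, with a median of 771. LOC105831241 lay between 549 and 1466 RPKM in foragers, with a median of 994, and between 502 and 1273 in nurses, with a median of 614. For LOC105839065 no nurse reached the median forager, and the low forager was forager 4. For LOC105831241 the one high nurse was nurse 14, the next having 775 RPKM, and forager 4 was again the lowest forager. Both pairs of ranges overlapped. The annotated span of LOC105839065 overlaps that of another member, LOC105829522, which averaged 405 ± 68.8 RPKM over foragers and 498 ± 121 over nurses. The forager mean was thus the higher one in LOC105839065 and the lower one in LOC105829522. Any reads in the shared span cannot be told apart without strand, and whether counted reads fall there was not tested. LOC105834987 averaged 668 ± 178 RPKM over foragers and 488 ± 73.0 over nurses.

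**Figure D3:**
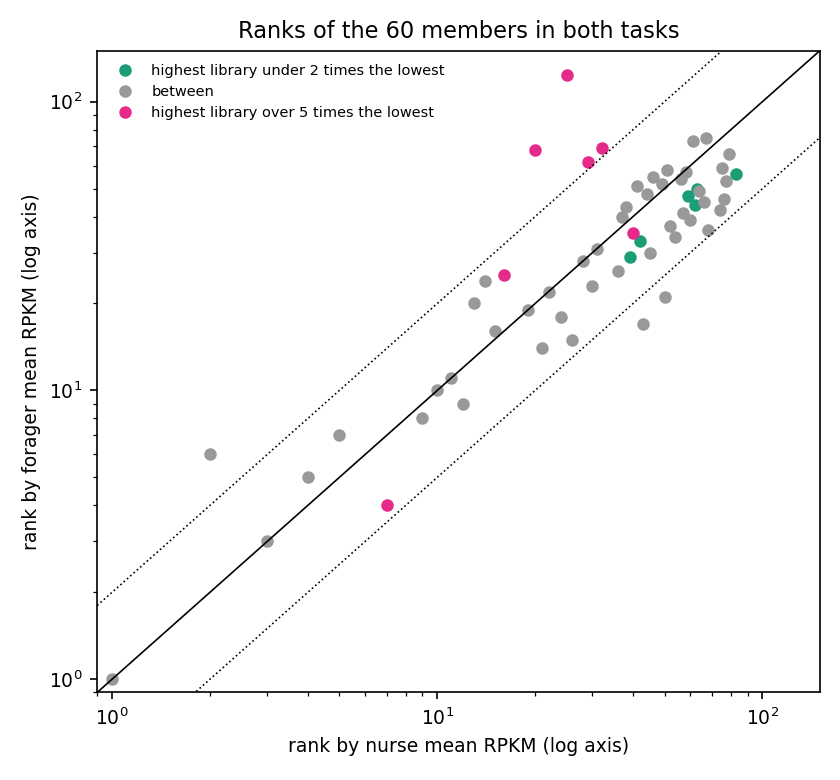
Rank of each of the 60 members by the nurse mean (x, log axis) and by the forager mean (y, log axis) among 12648 genes; dotted lines mark a 2-fold difference of rank and colours the range over libraries. Of the 60 points, 53 lie between the dotted lines, 5 above them (placed higher in nurses, 4 of these with wide ranges) and 2 below.

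Foragers and nurses were also compared with limma on log2(RPKM + 1) over all 9622 tested genes, which called 379 genes, 3.94% of those tested, at a Benjamini-Hochberg adjusted p under 0.05. Of the 60 members, which all passed the filter, 2 were among them, LOC105831241 and LOC105830375. With read depth as a covariate 0 members were called, and the genes called fell to 17 higher in foragers and 4 higher in nurses; without forager 5 0 members were called too. Because the choice of members used this contrast, nothing is read from these counts. LOC105830375 was also the member nearest the lower limit of the rule, with the forager higher in 13.5% of the pairings, and LOC105831241 the one nearest the upper limit, with 88.1%.

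In single libraries the list was less fixed. Of the 60 members, 46.3 ± 3.08 were among the 60 highest genes of a single forager library and 45.6 ± 2.41 among those of a single nurse library. Forager 4 had the fewest, with 39, and forager 2 the most, with 49. In every library at least 51 members were within the first 100 genes, and in 5 libraries all 60 were, namely foragers 1 and 9 and nurses 5, 10 and 14. There were 21 members that stood in the first 60 of every library, among them all of the first 10, and 54 that never fell below rank 200. The 6 that did were the 4 most variable members, LOC105830928 and LOC105833152. These last 2 fell in the same library: in forager 2 LOC105830928 was at 159.2 RPKM and rank 294, and LOC105833152 at 159.1 RPKM and rank 295. Outside forager 2 the lowest values were 310 RPKM for LOC105830928, in nurse 1, and 269 RPKM for LOC105833152, in nurse 11.

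Steadiness was described in 2 ways, by the ratio of the highest to the lowest of the 23 libraries and by the SD of log2(RPKM + 1) about the task means, pooled over both tasks. The members were less steady than most genes. Their median pooled SD was 0.43 on the log2 scale, against 0.29 over the tested genes, and the median ratio of highest to lowest library was 3.27. A ratio under 2 was found for 6 of 60 members, 10%, where 21.5% of the tested genes had one, and a ratio over 5 for 7 members, 11.7%, where 18.1% of the tested genes had one. The other 47 lay between. For the classes of level below the members, the median pooled SD was 0.35 over the 404 genes of 100 to 400 RPKM and 0.27 over the 4582 genes of 10 to 100 RPKM. The 86 tested genes of 400 RPKM or more, the members among them, had a median of 0.43. Of these 86, 8.14% had a ratio under 2 and 23.3% one over 5. The share over 5 was 28.5% at 1 to 10 RPKM, 7.46% at 10 to 100 and 10.4% at 100 to 400. The 18.1% over all tested genes is thus raised by genes of low level. Reads were not scarce for most of the list. Of the 55 members with a recovered length, 51 had at least 100 reads in every library, and the median of their lowest read numbers was 2483. The scaling of the libraries bears on these counts. With all libraries brought to a common summed RPKM, 13 members had a ratio under 2, which is 21.7% of the 60 and again less than the 28.1% of tested genes, and the median pooled SD was 0.35 against 0.29.

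The steadiest member was LOC105839261. It lay between 426 and 598 RPKM in foragers, with a median of 526, and between 403 and 637 in nurses, with a median of 546, so that its highest library had 1.58 times its lowest. LOC105828314 lay between 435 and 700 RPKM in foragers and between 444 and 740 in nurses, with medians of 548 and 569. LOC105834648 was the most abundant of the steady members. Its foragers lay between 590 and 1031 RPKM, with a median of 789, and its nurses between 591 and 991, with a median of 784. LOC105830266 lay between 567 and 868 RPKM in foragers and between 532 and 985 in nurses, with medians of 788 and 765. In these 4 genes the task medians differed by less than the SD of either task, and LOC105834648 and LOC105830266 stood within the first 60 of every library. LOC105834204, at 573 ± 130 and 541 ± 84.4 RPKM, and LOC105832324, at 480 ± 109 and 435 ± 57.5 RPKM, complete the 6. The ratio of LOC105832324 was only just under 2.

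The share of steady genes was higher among the longer members, as it was among the longer of all tested genes. Of the 10 members of 2000 bases or more, 3 had a ratio under 2 and the median pooled SD was 0.34. Of the 11 between 1000 and 2000 bases, 2 had a ratio under 2, and their median pooled SD was the largest, at 0.45. Of the 34 under 1000 bases, 1 had a ratio under 2 and the median pooled SD was 0.43. Over all tested genes the median pooled SD was 0.27 for the 5114 of 2000 bases or more, 0.29 for the 3003 in the middle class and 0.35 for the 1499 under 1000 bases. A ratio under 2 was found for 24.4%, 22.0% and 10.7% of these classes. At a common summed RPKM their median pooled SDs were 0.28, 0.27 and 0.33, so the middle class was then the lowest. Among the members the same classes then had medians of 0.30, 0.43 and 0.36. These are descriptions over genes, which are not replicates, and the part of length in the spread was not tested.

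**Figure D4:**
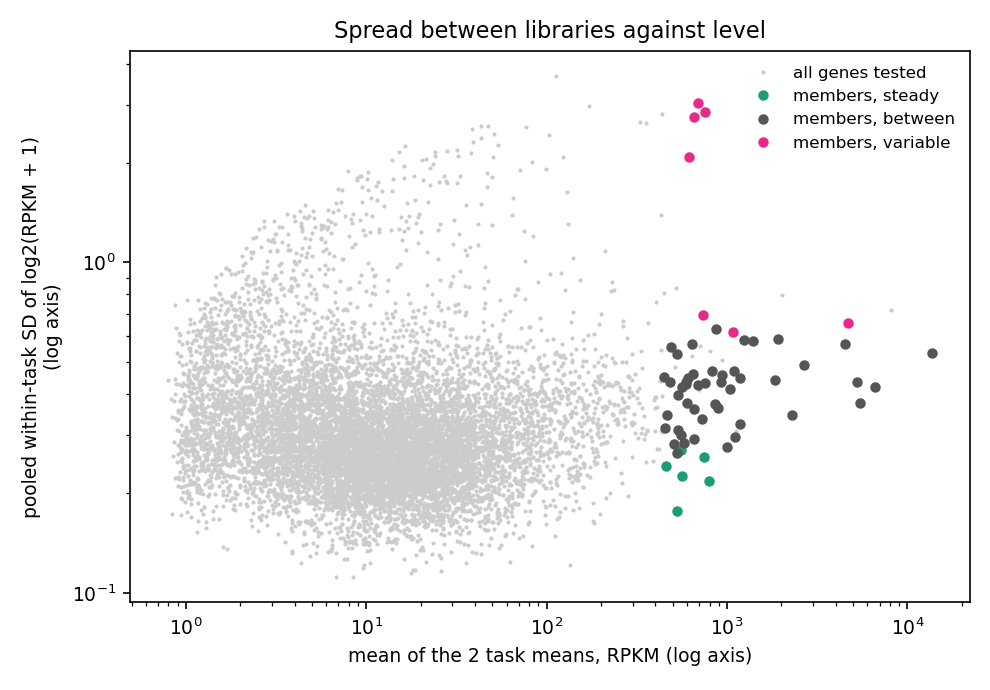
Pooled within-task SD of log2(RPKM + 1) (y, log axis) against the mean of both task means in RPKM (x, log axis) for all 9622 tested genes (grey) and the 60 members, coloured by the ratio of the highest to the lowest library. Most members lie between SDs of 0.2 and 0.7, and 4 lie at 2.08 to 3.03.

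Much of the spread fell on the same libraries. Forager 4 was the lowest forager in 32 of the 60 members, and nurse 1 was the lowest nurse in 26 and nurse 4 in 11. At the other end, forager 5 was the highest forager in 20 members and forager 2 in 17, and nurse 14 was the highest nurse in 17, nurse 9 in 12 and nurse 2 in 11. The summed RPKM of the libraries moved with this in part, and its role was not tested beyond the rescaling given here. It was 269114 in forager 4, 260684 in nurse 1 and 282271 in nurse 4, the lowest of all, and 398301 in forager 5 and 391450 in nurse 2, the highest. In forager 2 and nurse 9, also often the highest of their task, it was 354072 and 337838, near the medians of 349326 and 335895. The same 3 low libraries also had the fewest of their reads, 45.6% to 47.4%, in genes of recovered length, where all others had at least 51.0%. At a common summed RPKM, forager 4 was still the lowest forager in 19 members, while nurse 1 was the lowest nurse in 11, nurse 4 in 6, nurse 10 in 13 and nurse 3 in 10. Nurse 9 was then the highest nurse in 19 members, forager 2 the highest forager in 15 and forager 5 in 12. Without forager 4, nurse 1 and nurse 4, a choice made after seeing the data, 11 members had a ratio under 2 in place of 6.

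The 4 members with the widest range behaved unlike all others on the list. LOC105831433, LOC105840634, LOC105837073 and LOC105830375 had pooled SDs of 2.86, 3.03, 2.75 and 2.08 on the log2 scale, where the next highest, LOC105830928, had 0.69. They owe their place to some libraries only. Together they held from 0.0023% of the summed RPKM in forager 5 to 3.29% in nurse 10, with medians of 0.063% in foragers and 0.69% in nurses. Without them the members' share ran from 20.8% to 30.2% in foragers, and was 24.2% ± 2.85 in nurses.

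LOC105831433 had a median of 17.5 RPKM in foragers but reached 1327 in forager 1 and 2416 in forager 9. In nurses it ran from 15.9 in nurse 1 to 5489 in nurse 5, where it was the second most abundant gene of the library, with a median of 506. LOC105840634 had a median of 15.6 RPKM in foragers, with 1338 in forager 1 and 2662 in forager 9, and ran in nurses from 8.81 in nurse 1 to 2888 in nurse 10, with a median of 451. Foragers 1 and 9 stood far above the other 7 foragers for both genes, and nurse 1 was the lowest nurse.

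LOC105837073 had a median of 28.5 RPKM in foragers, with 1619 in forager 1 and 1858 in forager 9, and ran in nurses from 14.5 in nurse 1 to 2588 in nurse 10, with a median of 437. LOC105830375 had a median of 136 RPKM in foragers, with 1249 in forager 1 and 501 in forager 9, and ran in nurses from 19.1 in nurse 1 to 1851 in nurse 2, with a median of 798. For all 4 genes the 2 highest foragers were foragers 1 and 9, the lowest forager was forager 5 and the lowest nurse was nurse 1. In 4 foragers and 1 nurse all 4 genes were under 100 RPKM, and in those 4 foragers none exceeded 31.1. In 2 foragers and 7 nurses all 4 were at 300 RPKM or more. The groups overlapped for each gene, since foragers 1 and 9 lay within the range of the nurses and nurse 1 within that of the foragers.

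The low ends of these ranges rest on few reads. In forager 5, the library with the fewest reads, LOC105840634 had 1 read, LOC105837073 3, LOC105831433 14 and LOC105830375 15. The ratio of the highest to the lowest library was 7653 for LOC105840634, with an exact 95% interval of 1373 to 302278 that covers counting error only. It was 2667 for LOC105837073 (912 to 12932), 2473 for LOC105831433 (1474 to 4524) and 324 for LOC105830375 (197 to 580). LOC105831433 and LOC105840634 are near neighbours in the annotation, with 1 annotated gene between them, and each overlaps a gene annotated as long non-coding RNA. No other member was found within 20 genes of LOC105837073 or LOC105830375. Only 55 of the 60 members were placed on a chromosome and could be searched, so a close pair may have been missed. Whether reads of one were counted to another was not tested.

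**Figure D5:**
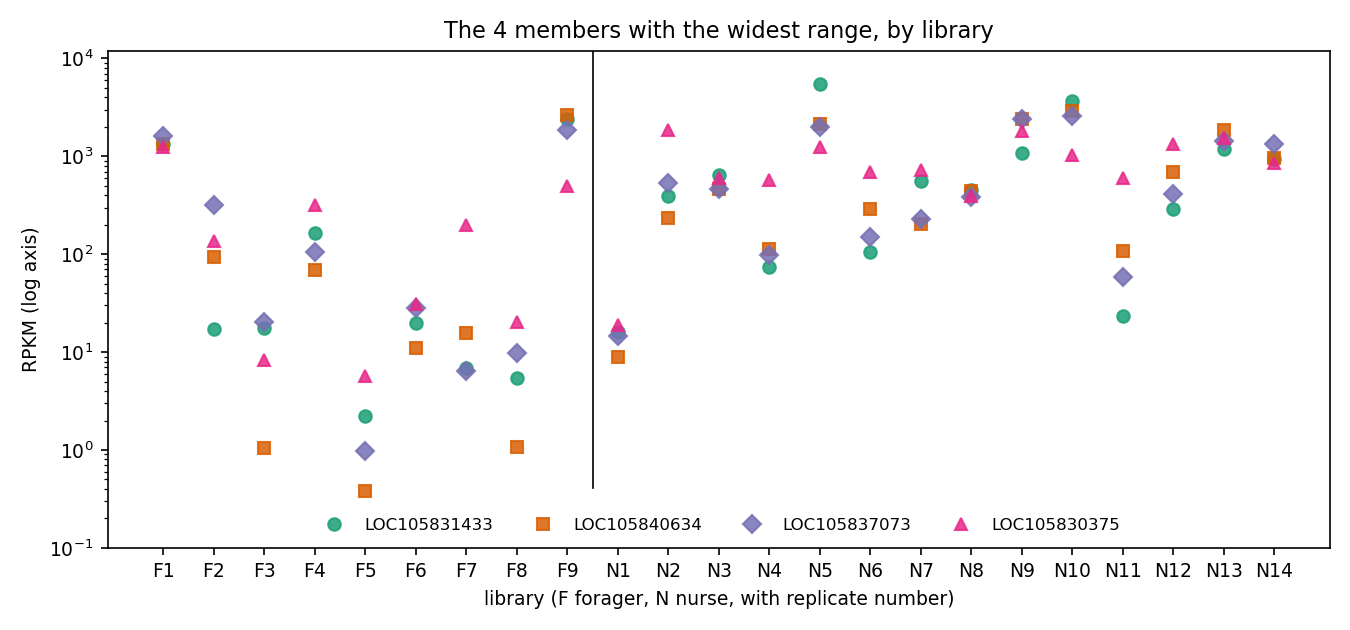
RPKM on a log axis of the 4 members with the widest range in each library, F for foragers and N for nurses. All 4 are high in foragers 1 and 9 and low in forager 5 and in nurse 1, and 7 nurses (3, 5, 8, 9, 10, 13 and 14) have all 4 at 300 RPKM or more.

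Other members lie close to each other as well. Apart from the overlapping pair above, 2 pairs of the 55 placed members had fewer than 4 annotated genes between them. These were LOC105831433 with LOC105840634 and LOC105830146 with LOC105830266. LOC105830146 averaged 954 RPKM over foragers and 827 over nurses, and LOC105830266, one of the steady genes, at 734 and 764. Spans of 17 members overlap another annotated gene, 28.3% of the 60, where 37.6% of the tested genes do. Among those with a known level of an overlapping gene, it was highest for LOC105829522, whose partner LOC105839065 had a mean level of 939 RPKM. Next was LOC105839065 itself, whose partner LOC105829522 had 452 RPKM. After this pair it was highest for LOC105838322. The latter averaged 598 ± 158 RPKM over foragers and 470 ± 101 over nurses, and its overlapping gene LOC105838324 had a mean level of 210.3 RPKM.

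Read depth was the one relation that could be tested on the members without reusing the values that chose them, since its slope is taken within tasks. In limma with task and log2 read total in the model, no gene of 9622 was called at an adjusted p under 0.05, a background of 0%, and 349 genes had an unadjusted p under 0.05. Of the 60 members 0 were called and 5 had an unadjusted p under 0.05, 3 with higher and 2 with lower values in deeper libraries. The largest slope among these was that of LOC105833867, higher by 0.52 on the log2 scale for each doubling of the read total (SE 0.16, limma adjusted p = 0.999). LOC105835552 had a slope of 0.47 (SE 0.18) and LOC105834324 of 0.34 (SE 0.15), with the same limma adjusted p of 0.999. The slopes of the 4 most variable genes were 0.51 (SE 0.88) for LOC105831433, 1.07 (SE 0.92) for LOC105840634, 0.77 (SE 0.84) for LOC105837073 and 0.69 (SE 0.63) for LOC105830375, each with a limma adjusted p of 0.999. With errors of this size, a slope of 1, a doubling of the level with each doubling of reads, was not detectable for these 4. The median slope was 0.06 over the members and -0.02 over all tested genes.

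The limits of the rule set where the list ends. The last member, LOC105833152, averaged 450 ± 144 RPKM over foragers and 442 ± 98.4 over nurses, and the first gene outside, LOC105837210, at 450 ± 130 and 423 ± 108. Above the last member, 12 genes were left out because the tasks were too clearly split, and these held 5.88% ± 0.89 of the summed RPKM in foragers and 4.51% ± 0.74 in nurses. The 2 that would have been among the first 10 were LOC105838064, with the forager higher in 96.8% of the pairings, and LOC105835742, with 4.76%. Ranking by the task medians instead of the means kept 56 of the 60 genes, and ranking by the mean over all 23 libraries kept 58. The places of LOC105831433, LOC105840634 and LOC105837073 rest on the ranking by means. Their forager medians were 17.5, 15.6 and 28.5 RPKM, against 478 for the last member. Their nurse medians were 506, 451 and 437 RPKM, against 427.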

How the data were processed

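RPKM for 12648 genes in 23 libraries came as the authors' deposited table. The submitters' processing notes name STAR 2.5.0b for alignment. For the counter, build and gene models, nothing is given in the sources used here. Columns were matched to the labels by the description field, and groups are the labels' tasks.

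Each deposited RPKM value has 6 digits and is a whole number of reads times a step set by gene length and library total; solving for these steps gave read totals, reads and, for 12114 genes, a length. The search keeps only lengths that give whole reads, so it is no check of itself. It was tested on simulated reads of 1500 genes, and 99.9% of their lengths were recovered. All of these were drawn from genes whose length had been recovered here. That test therefore does not cover genes without a recovered length. No 2 libraries were duplicates (lowest chi-square per degree of freedom over 253 pairs, 10.5). Read numbers limit precision; intervals cover counting error only.

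Tests used limma 3.58.1 (R 4.3.3) on log2(RPKM + 1) with an intensity trend, two-sided, Benjamini-Hochberg adjusted over the 9622 genes that reached 1 RPKM in 9 libraries or more. The members, the limits of 2 and 5 times and all lists were chosen with earlier results of these data known. Genes are named by rule: the 10 highest, the 5 lowest and 5 highest pooled SDs, the 3 largest rank shifts each way and the genes at the limits, with those left out of the first 10 by the share limits. Named outside this rule, after their values were seen, were LOC105834204, the shortest genes, genes that overlap or neighbour each other, and LOC105833867 and LOC105835552 in the depth fit. No product names were paired with the identifiers, so the planned gene lists, cell type markers and protein comparison were left empty. Alternatives were other pseudocounts, filters, scalings and rankings, no trend, the replicate block, depth as a covariate and leaving out each library. Python 3.11.15, NumPy 2.4.6, pandas 2.3.3 and matplotlib 3.10.9 were used.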

Additional observations from a re-analysis of the deposited data

Results flagged for a closer look

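Dixon's gap test at the 95% level was applied at both ends of 28 measures over the 9 foragers, and 5 had 1 library far from its neighbours. Chance flags about 1 in 20 groups only where measures are chosen without regard to their values. Here the genes were named by level, spread and rank in these same libraries, so the flags are a description. The nurse group, with 14 libraries, was too large for this test and was left out. LOC105835275 reached 11154 RPKM in forager 5 against 6339 in the nearest forager. LOC105830660 reached 10903 RPKM in forager 5 too, against 6600. LOC105834264 was low in forager 4, with 1090 RPKM against 1986. LOC105840634 had 2662 RPKM in forager 9 against 1338, and LOC105830375 had 1249 RPKM in forager 1 against 501. On the log2(RPKM + 1) scale the gap was 0.57 of the range for LOC105835275 and 0.70 for LOC105834264, still past the critical value, while for the other 3 genes it no longer was. Forager 5 had the fewest reads and the highest summed RPKM, and forager 4 the lowest summed RPKM of the foragers. Their part in these values was not tested.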

How the results depend on the processing

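The share held by the members kept within 1 SD of its value under other rankings, without the 4 most variable members, without the 3 libraries of lowest summed RPKM and without any single library (24.9 to 26.0% in foragers, 25.1 to 25.7% in nurses). By construction it was 20.8 and 19.8% for the first 30 genes and 31.2 and 31.9% for the first 120. The 55 members of recovered length held 6.21 and 6.20% of all reads. The 6 steady members became 13 at a common summed RPKM, 11 without the 3 libraries and 11 by the second highest over the second lowest library; leaving out 1 library gave 6 to 8. The 7 variable members became 4 when the members were chosen by task medians, and leaving out 1 library gave 6 to 7. The 7 rank shifts became 4 with that same list, and leaving out 1 library gave 4 to 8, with 4 without nurse 5. The list chosen by medians leaves out LOC105831433, LOC105840634 and LOC105837073, which are both variable and shifted. Neither fall to 4 therefore shows a smaller spread or shift in the genes kept. The genes called between tasks, 169 higher in foragers and 210 in nurses, became 262 and 324 at a common summed RPKM, 326 higher in nurses with TMM factors and 17 and 4 with depth as a covariate; leaving out 1 library gave 88 to 276 and 112 to 328. Moves over 1.5 times came without forager 3 (98 and 112), forager 4 (268 higher in foragers), forager 5 (88 and 119), forager 6 (276 higher in foragers) and nurse 1 (328 higher in nurses). The 2 members among them became 8 at a common summed RPKM, 5 without trend and 0 with the depth covariate, and 0 to 7 without 1 library: 0 without forager 5, 1 without forager 3 or 8 or nurse 9, 12 or 13, 4 without forager 9, 5 without nurse 1 or 3, and 7 without forager 4. For read depth, TMM factors gave 1 called gene, not a member, and leaving out 1 library gave 0. The cause was not tested. Pairing by replicate number was not borne out: deviations of same-numbered libraries correlated at -0.34 to 0.43, above 0.1 in 4 of 9 pairs, and only 1 of the 9 foragers was closest to the nurse of its number. The replicate block gave 44 and 22 genes and 0 members, and the same libraries without a replicate block 44 and 29 genes and 1 member. Few reads limit the low values of the 4 most variable members only.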
